A study of Danio rerio with 4 samples.

Results

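Isolated GFP-negative-only regions were examined in ATAC-seq data from zebrafish embryos. ATAC-seq cuts open chromatin with the Tn5 transposase, and its short fragments mark nucleosome free regions (NFRs). Embryos of the Tg(krt4:GFP) line, which carry GFP under the krt4 promoter, were dissociated at the 4-somite stage and sorted into 50000 cells per library. The data comprised 2 libraries of GFP-negative cells (non-periderm, the rest of the embryo) and 2 libraries of GFP-positive cells (periderm, the outermost epithelial layer), all from the same transgenic line and stage. The embryos came from 2 independent incrosses. The GFP-negative cells are a mixture, and in such bulk samples a site that is open in fewer cells and a site that is less open in each cell cannot be told apart.

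Peaks had been called in each library separately. Wherever peaks of the 4 lists shared 1 bp or more they were joined, which gave 694637 regions. A GFP-negative-only region held a peak of both GFP-negative lists and of neither GFP-positive list. There were 39772 such regions, 5.73% of all regions. Of these, 5275 (13.3%) lay more than 5 kb from every region called in all 4 lists and more than 20 kb from every other GFP-negative-only region. These 5275 isolated regions made up 0.759% of all regions. The other GFP-negative-only regions fell into 11178 grouped regions, which were more than 5 kb from shared regions but within 20 kb of another GFP-negative-only region, and 23319 flanking regions, which were within 5 kb of a shared region. The members were thus chosen on the presence and absence of peaks in all 4 lists, so that the contrast between populations is fixed by the choice and was not tested. Comparisons between the classes were made within each GFP-negative list, and an exact sign-flip test over 2 lists cannot go below a two-sided p of 0.5, so these too are given as descriptions.

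Gene regulation at a distance works through enhancers, stretches of DNA that bind transcription factors and act on a promoter that can be many kilobases away. When an enhancer is in use its DNA is depleted of nucleosomes, and Tn5 can cut it. At the 4-somite stage the cells outside the periderm include the neural plate, the forming somites and other mesoderm, the endoderm and the deeper epidermis, each with enhancers of its own. Open regions also include promoters and sites bound by the insulator protein CTCF. Distance here was measured from other open regions and not from genes. No genome or gene annotation of the same build was used, so the word distal says nothing of transcription start sites, and no gene or sequence is given for any region.

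The lists held 455867 and 333588 peaks in GFP-negative replicates 1 and 2, and 336052 and 190059 peaks in GFP-positive replicates 1 and 2. Each peak carries 1 value, read as its fold over the background of its own library. All values were whole multiples of 1 step per list, and from this step a summit height in tags was computed for each peak. The implied depth was 42446899 and 37589490 tags for GFP-negative replicates 1 and 2, and 24915271 and 29455700 tags for GFP-positive replicates 1 and 2. The lowest height called was 6 tags in both GFP-negative lists and in GFP-positive replicate 2, and 5 tags in GFP-positive replicate 1. Per 10000000 tags this is 1.41 and 1.60 for GFP-negative replicates 1 and 2, against 2.01 and 2.04 for GFP-positive replicates 1 and 2. A weaker site could thus be called in the GFP-negative lists than in the GFP-positive lists. The part of this difference in the choice of the members was not tested.

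Isolated regions were mostly single peaks from the lower and middle part of each list. In 5173 of the 5275 regions (98.1%) each GFP-negative list held exactly 1 peak, against 98.2% of grouped, 97.7% of flanking and 87.1% of shared regions. The summit reached a median of 11 tags in replicate 1 (quartiles 9 and 14) and 10 tags in replicate 2 (quartiles 9 and 13). The highest summits were 42 tags in replicate 1 and 41 tags in replicate 2. Ranked within their own list, the median peak of an isolated region stood at percentile 48.3 in replicate 1 and 33.3 in replicate 2, a mean of 40.8 ± 10.6 (SD, n = 2). The middle of each list, 11 and 12 tags, was thus at or above the middle of the members. Only 11 members in replicate 1 and 3 in replicate 2 were among the strongest 10% of their list, a band that held 10.1% and 10% of all peaks, and 2 members were in it in both. The rule removes a region when any GFP-positive peak touches it, so these ranks are not independent of how the members were chosen.

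Isolation from other open regions went with little difference in height. Grouped regions had median summits of 11 and 10 tags in replicates 1 and 2, the same as isolated regions, and flanking regions had 11 tags in both. Regions called in all 4 lists had 26 and 24 tags. In both lists the quartiles of the 3 GFP-negative-only classes were the same, at 9 and 14 tags in replicate 1 and 9 and 13 tags in replicate 2. The curves of the 3 classes therefore lie on each other over most of their range, and the curve of shared regions lies apart. The highest summit in replicate 2 was 41 tags for isolated, 65 tags for grouped and 51 tags for flanking regions. A maximum depends on the number of regions, here 5275, 11178 and 23319, so no difference between the classes is read from it.

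**Figure D1:**
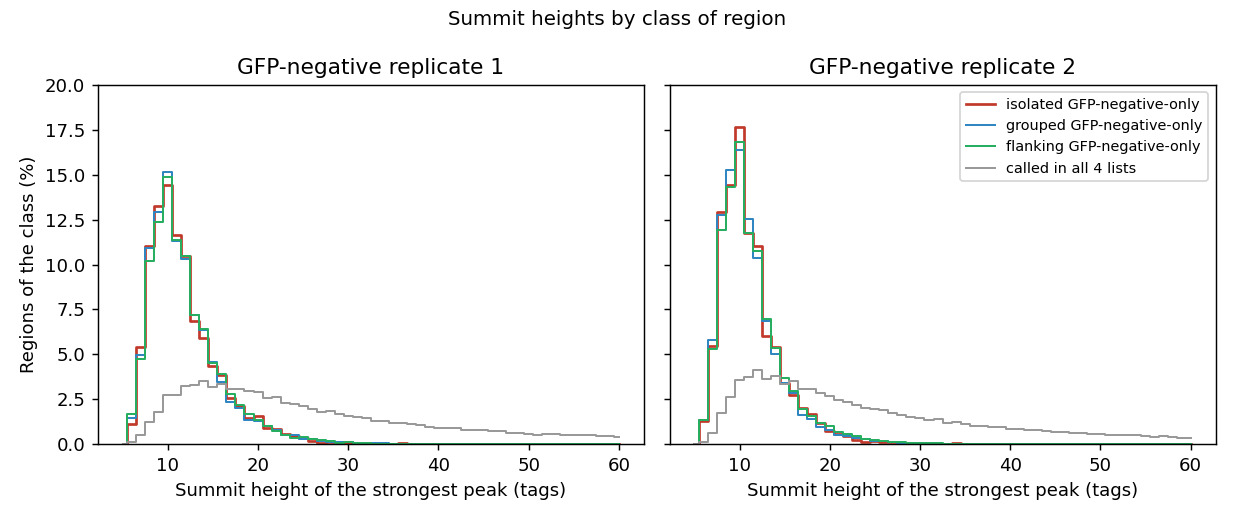
Share of regions (y axis, percent of the class) by summit height of the strongest peak (x axis, tags, drawn to 60) in GFP-negative replicates 1 and 2, for isolated, grouped and flanking GFP-negative-only regions and for regions called in all 4 lists. The GFP-negative-only classes peak near 10 tags in both lists and overlap, while shared regions spread to higher values with medians of 26 and 24 tags.

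Peak width showed a small and ordered difference. The median width was 88 bp in replicate 1 and 73 bp in replicate 2 for isolated regions, 90 and 74 bp for grouped regions, 93 and 77 bp for flanking regions, and 184 and 158 bp for shared regions. All peaks of these lists had medians of 91 and 88 bp. Over the 2 lists the mean was 80.5 ± 10.6 bp for isolated and 85.0 ± 11.3 bp for flanking regions (SD, n = 2 each). The step between these classes is smaller than this spread and has the same sign in both lists. Both classes were measured in the same lists, so the spread between lists is no measure of the step, which was not tested. The narrowest peak in any list was 53 bp, where tags had been extended to 54 bp. A width of 53 bp was found for 15.4% of isolated regions in replicate 1 and 21.6% in replicate 2. It was found for 15.1% and 21.8% of grouped, 13.5% and 19.9% of flanking and 1.41% and 2.39% of shared regions. In 2477 isolated regions (47.0%) both peaks were under 100 bp, against 44.6% of grouped, 41.7% of flanking and 9.40% of shared regions.

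The heights were then set against the lowest height that was called in the GFP-positive lists, to ask how many members stood clear of the point at which a periderm peak could first be seen. The higher of the 2 GFP-positive values, 2.04 tags per 10000000 tags of depth, is called the floor. In replicate 1, 4350 members (82.5%) reached the floor, against 81.4% of all peaks of that list. In replicate 2, 4920 members (93.3%) reached it, against 94.2% of all peaks. Both peaks reached it in 4086 members (77.5%), which leaves 1189 (22.5%) with at least 1 peak too low to have been called at the same scaled height in both GFP-positive lists. The share that missed the floor was 22.9% for grouped and 21.9% for flanking regions, and 2.56% for shared regions.

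Few members stood far above the floor. In 3198 (60.6%) the lower of both heights was from 1 to 1.5 times the floor, and in 717 (13.6%) it was from 1.5 to 2 times. In replicate 1, 480 members (9.10%) reached 2 times the floor, where 22.2% of all peaks did. In replicate 2, 558 members (10.6%) did, where 31.9% of all peaks did. The condition was met in both lists by 171 members (3.24%), against 3.16% of grouped and 3.39% of flanking regions. Only 11 members reached 3 times the floor in both lists, and none reached 5 times. The 171 stronger members were spread over all 25 chromosomes, with 2 to 11 on each. Of them, 112 had no GFP-positive peak within 1 kb, a share close to that of all members, where 3339 (63.3%) had none.

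**Figure D2:**
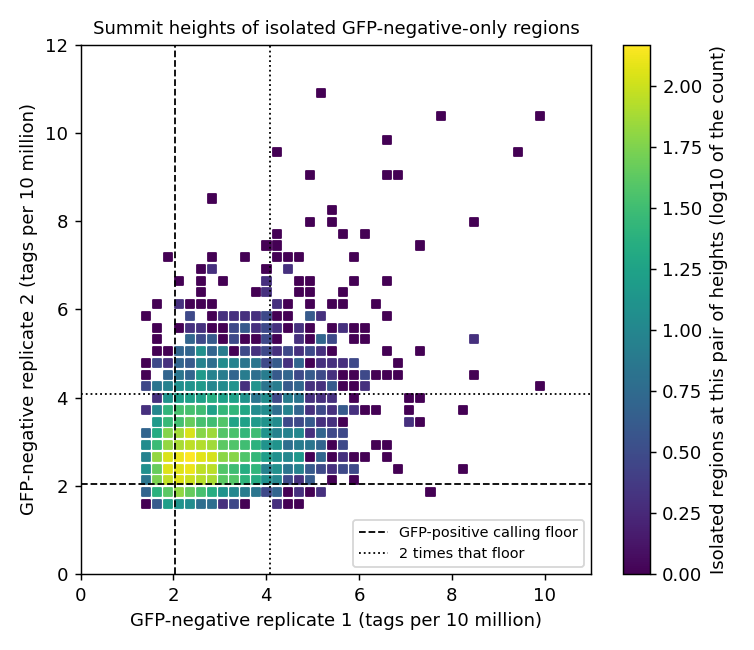
Summit heights of the 5275 isolated regions in GFP-negative replicate 1 (x axis) and replicate 2 (y axis), in tags per 10000000 implied tags, with the number of regions at each pair of heights as colour (log10). The dashed lines mark the GFP-positive calling floor of 2.04 and the dotted lines 2 times that floor, above which 171 regions lie in both lists.

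Replicates agreed only loosely on the height of an isolated region, while its position was held close by the rule. A member needs overlapping peaks of both GFP-negative lists. The distance between their middles is therefore limited by their widths. The middles of both peaks lay a median of 24.5 bp apart, and the median overlap was 53 bp, or 90.7% of the shorter and 54.4% of the longer peak. In 2026 members (38.4%) 1 peak lay wholly inside the other, against 38.0% of grouped, 38.7% of flanking and 53.1% of shared regions. Grouped and flanking regions had a median distance of 25.5 bp each, and shared regions 20 bp. Across the 5275 members the rank correlation of the fold values between the lists was 0.27 (Spearman) and the correlation of percentiles 0.27 (Pearson), against 0.24 and 0.25 for grouped, 0.24 and 0.24 for flanking and 0.85 and 0.65 for shared regions. These are correlations across regions of the same 2 libraries. The regions are not independent replicates, and members span a narrow range of heights. Scaled to depth, 38.5% of members were higher in replicate 1 than in replicate 2. The share was 39.3% for grouped, 39.1% for flanking and 43.4% for shared regions.

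The strongest members, ranked by the lower percentile of both lists, show what the upper end of the class looks like. Positions are in the danRer7 build, counted from 1. A region on chromosome 8 from 22298324 to 22298799 had summits of 33 and 39 tags in GFP-negative replicates 1 and 2. On chromosome 17, the region from 13895683 to 13896034 had 42 and 39 tags. These were the 2 members among the strongest 10% of both lists, and both were wide for the class, at 476 and 352 bp, the first with 2 peaks in replicate 2. The nearest GFP-positive peak lay 282 bp from the first and 2305 bp from the second, so the first has a GFP-positive call close by.

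Other regions near the top of the ranking were narrow. Chromosome 25 from 7025548 to 7025637 had 40 and 36 tags in replicates 1 and 2 within 90 bp, and chromosome 9 from 5071069 to 5071167 had 28 and 37 tags within 99 bp. Chromosome 14 from 29418255 to 29418337 had 28 and 34 tags, and chromosome 17 from 9957239 to 9957321 had 26 and 29 tags. In each of these last regions the peak started and ended at the same base in both lists, over 83 bp. The rule already required an overlap of both peaks, and the reason for the identical edges was not tested.

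Of the remaining members of the top 10, 3 lay on chromosome 18. Chromosome 18 from 47458022 to 47458442 had 29 and 34 tags in replicates 1 and 2, the region from 9611793 to 9612011 had 24 and 29 tags, and the region from 36573794 to 36574095 had 31 and 28 tags. The last of these was the emptiest in its surroundings, with 8391 bp to the nearest region of any kind and 8664 bp to the nearest GFP-positive peak. Chromosome 4 from 30369748 to 30369885 had 36 and 30 tags. Among these 10 regions, on 7 chromosomes, the scaled height ran from 5.65 to 10.4 tags per 10000000 tags of depth, and 1 of the 10 had a GFP-positive peak within 1 kb.

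Identical peak edges in both lists were counted over the whole class, a count chosen after the values were seen. They occurred in 57 isolated regions (1.08%), against 0.743% of grouped, 0.592% of flanking and 0.287% of shared regions. Of the 57, 22 were peaks of 53 bp, the narrowest width in the lists, and the widest was 108 bp. Among the 171 members that reached 2 times the floor in both lists, 11 (6.43%) had identical edges, and none of these 171 had a peak of 53 bp. The corresponding shares were 4.25% for grouped and 2.28% for flanking regions. Read positions within these peaks were not used here.

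A typical member is far weaker than those. The 3 regions named as closest to the median of the lower percentile were chromosome 1 from 7527585 to 7527681, from 8683052 to 8683124 and from 17439714 to 17439822. They share a lower percentile of 24.4 with many other members, so they are examples of a tie. The heights of the first, 9 and 10 tags in replicates 1 and 2, were those of 127 members. All had 9 tags in replicate 1, and 10, 11 and 11 tags in replicate 2. Such a region stands 3 tags above the lowest height called in replicate 1. By the overlap of both peaks, the widest members were these. Chromosome 25 from 16862728 to 16863112 had an overlap of 376 bp with 28 and 11 tags, chromosome 23 from 11818009 to 11818450 an overlap of 366 bp with 16 and 12 tags, and chromosome 7 from 32364658 to 32365062 an overlap of 347 bp with 21 and 22 tags.

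Isolated regions lay in thinly populated parts of the genome, which the rule itself favours. The median distance to the nearest region called in all 4 lists was 12175 bp, and to the nearest other GFP-negative-only region 34381 bp. Within 50 kb on either side the median member had 44 other regions, against 53 for grouped, 60 for flanking and 56 for shared regions and 54 for all regions. The member farthest from another GFP-negative-only region, on chromosome 14 from 2775958 to 2776097 with 14 tags in each list, had none for 283301 bp. It was followed by chromosome 5 from 49003297 to 49003473 at 227129 bp (8 and 14 tags) and chromosome 2 from 44556083 to 44556203 at 218081 bp (8 and 9 tags). The last of these had a GFP-positive peak only 88 bp away.

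Isolation in the sense of the rule was seldom isolation from all peaks. The nearest region of any kind was a median of 632 bp away, against 391 bp for all regions, and only 230 members (4.36%) had no other region within 5 kb, against 1.76% of grouped regions and 1.26% of all regions. A total of 21 members had none within 10 kb. The rule bars shared and other GFP-negative-only regions from within 5 kb of a member, and regions in general are under no such bar. Grouped regions have another GFP-negative-only region within 20 kb by definition. These differences are thus not independent of how the classes were chosen. The emptiest surroundings were those of chromosome 16 from 37194662 to 37194730 (10 and 8 tags in replicates 1 and 2), with 18126 bp to the nearest region. Chromosome 1 from 18966565 to 18966629 (13 and 12 tags) had 15044 bp, and chromosome 14 from 43879224 to 43879276 (13 and 10 tags) had 14959 bp. All 3 were under 70 bp wide. With the rule applied anew to the other lists, the share with no region within 5 kb was 28.5% or 38.7% without GFP-negative replicate 1 or 2, and 10.7% or 7.05% without GFP-positive replicate 1 or 2. These are shares of largely different sets for either GFP-negative list, which hold 9.82% and 1.54% of the members. With either GFP-negative list left out, every region without a GFP-positive peak is itself GFP-negative-only and barred within 20 kb. Only regions with a GFP-positive peak can then lie within 5 kb, so these shares are not comparable with 4.36%.

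Most regions near an isolated region had been called in a single list, at a share like that of regions of the same kinds far from shared regions. Of the 21740 regions within 5 kb of a member, 16769 (77.1%) were called in 1 list. The rule bars shared and other GFP-negative-only regions from these 5 kb. Of the 254551 regions of the remaining kinds more than 5 kb from a shared region, 77.6% were called in 1 list. A neighbour of a member can itself lie within 5 kb of a shared region, so this set is not matched to the neighbours. GFP-negative replicate 1, the longest list, alone accounted for 37.8% of the neighbours, GFP-positive replicate 1 alone for 18.1%, GFP-negative replicate 2 alone for 17.1% and GFP-positive replicate 2 alone for 4.17%. Regions of both GFP-positive lists and neither GFP-negative list made up 1.67% of the neighbours, against 1.97% of the same 254551 regions.

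Peak density around the members showed the distances of the rule as steps. From 1 to 2 kb from the edge of an isolated region, the density was 65.6% and 45.7% of the list mean in GFP-negative replicates 1 and 2, and 58.8% and 30.8% in GFP-positive replicates 1 and 2. From 5000 to 7500 bp it was 76.1% and 66.6% in the GFP-negative lists and 80.1% and 72.4% in the GFP-positive lists. Beyond 20 kb, past both distances of the rule, it was still under the list mean. From 20 to 30 kb it was 89.8% and 87.2% in the GFP-negative and 89.0% and 85.8% in the GFP-positive lists. Around grouped regions the same interval had 109% and 108% in the GFP-negative lists and 105% and 101% in the GFP-positive lists. The low density around isolated regions was thus found in the lists of both populations. Isolated regions were chosen for sparse surroundings and grouped regions for a close neighbour, and the density of regions varies along the chromosomes. The values beyond 20 kb are therefore not independent of this choice. In all 4 lists the first 500 bp held more peaks than the next, with 91.1% and 75.3% of the list mean in GFP-negative replicates 1 and 2 and 88.6% and 46.3% in GFP-positive replicates 1 and 2.

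**Figure D3:**
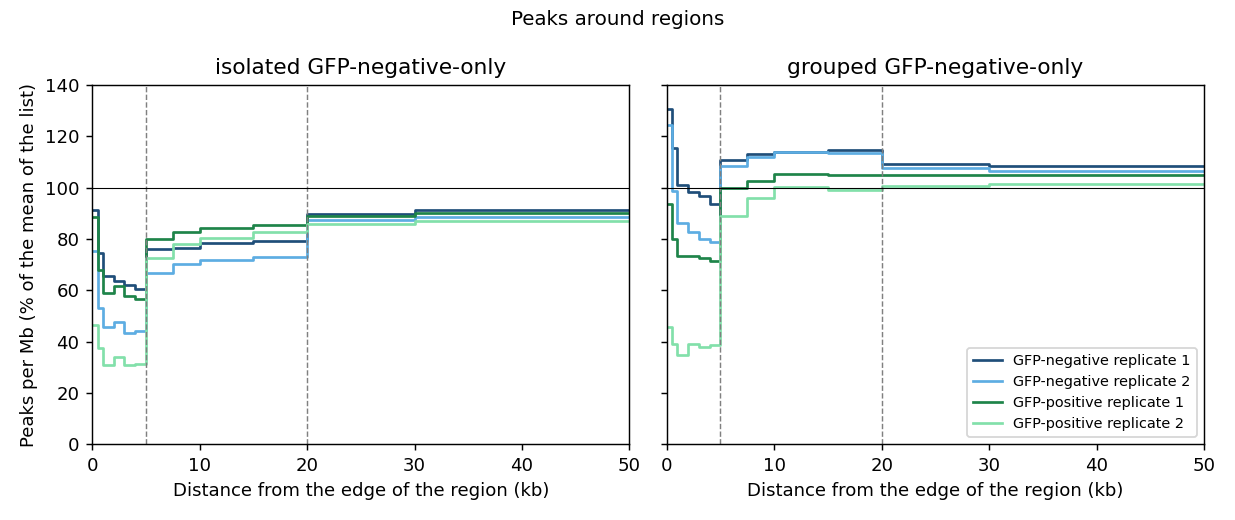
Peaks per Mb (y axis, percent of the mean of the list) by distance from the edge of isolated and grouped GFP-negative-only regions (x axis, kb), for each of the 4 lists. The vertical dashed lines mark the 5 and 20 kb distances of the rule, and around isolated regions all lists remain under 100% beyond 20 kb.

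GFP-positive peaks lay within 5 kb of most members, but less often than for regions in general, which the rule itself favours. Such a peak can lie in a region that was also called in a GFP-negative list, so it does not mark a site of periderm alone. A peak of either GFP-positive list lay within 1 kb of 1936 members (36.7%) and within 5 kb of 4239 (80.4%), against 39.8% and 84.7% of grouped regions 68.1% and 100% of flanking regions, and 52.3% and 92.3% of all regions, where a region's own peaks were not counted. The median distance to such a peak was 1779 bp for isolated, 1523 bp for grouped and 504 bp for flanking regions, and 913 bp for all regions. The value of 100% for flanking regions is fixed by their definition. The rule also bars regions called in all 4 lists, which hold GFP-positive peaks, from within 5 kb of a member. Grouped regions are under the same bar, and regions in general are not. Among the 5275 members, 75.2% had a peak of GFP-positive replicate 1 within 5 kb and 36.9% a peak of GFP-positive replicate 2. With the whole rule applied anew, the share was 31.5% without GFP-positive replicate 1 and 66.7% without GFP-positive replicate 2, over sets that hold 39.7% and 64.2% of the members. Regions of both GFP-positive lists and neither GFP-negative list were farther off, with a median of 52000 bp, and lay within 20 kb of 1231 members (23.3%), against 24.1% of grouped and 27% of flanking regions. No GFP-positive peak lay within 10 kb of 204 members (3.87%), against 2.17% of grouped and 0.70% of shared regions. Where the same rule was applied to regions of both GFP-positive lists and neither GFP-negative list, 2.96% had no other GFP-positive peak within 10 kb. That value is a distance to peaks of their own population and does not mirror the value of the members. Their distance to GFP-negative peaks was not computed.

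**Figure D4:**
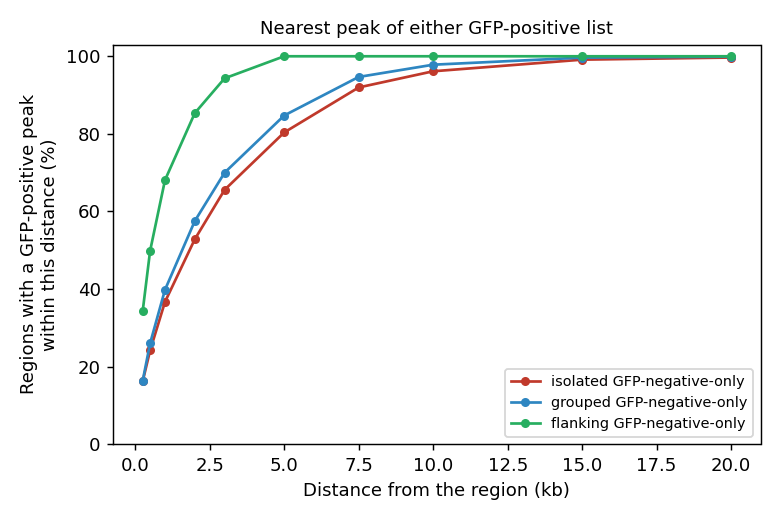
Share of isolated, grouped and flanking GFP-negative-only regions (y axis, percent) that had a peak of either GFP-positive list within a given distance (x axis, kb). The curve of isolated regions reaches 36.7% at 1 kb and 80.4% at 5 kb, below that of grouped regions at these distances.

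Proximity to a GFP-positive peak changed little with the height of the members. It lay within 1 kb for 39.0% of the 1189 members that missed the floor, 36.2% of the 3198 at 1 to 1.5 times the floor, 35.6% of the 717 at 1.5 to 2 times and 35.6% of the 160 at 2 to 3 times. The 11 members above 3 times the floor are too few for a share, and 2 of them had such a peak. Width increased over these bands, where the median in replicate 1 was 80, 84, 110 and 145 bp over the same bands of members, although it was 99 bp for the 11 above 3 times the floor.

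Isolated regions were found on every chromosome at a similar density. The count ran from 148 on chromosome 25 to 331 on chromosome 7, and the density from 3.39 per Mb on chromosome 24 to 4.32 per Mb on chromosome 4, with a median of 3.88 per Mb. The isolated share of GFP-negative-only regions ran from 11.1% on chromosome 23 to 15.7% on chromosome 12. Chromosome 4, whose long arm is known to be rich in repeats and poor in protein-coding genes, held 268 members (5.08%). It held 4.65% of all GFP-negative-only regions and 4.35% of all regions. Of these 268, 147 (54.9%) lay beyond 30 Mb, against 66.7% of grouped and 49.0% of flanking regions and 53.5% of all regions on this chromosome.

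Position along the chromosome differed more. Within 2 Mb of a chromosome end, taken as its first base or its furthest peak, lay 236 isolated regions (4.47%), against 11.3% of grouped, 16.8% of flanking and 11.6% of shared regions and 11.5% of all regions. The isolated share of GFP-negative-only regions was 2.54% in the outer 1 Mb, 7.01% from 1 to 2 Mb, 10.8% from 3 to 5 Mb and 16.7% from 10 to 20 Mb. Regions were also denser near the ends, with a median of 97 others within 50 kb in the outer 1 Mb and 48 from 10 to 20 Mb, and the distances of the rule act on this density directly. Under all 12 alternative settings that were run, the share of isolated regions within 2 Mb of an end was under that of all GFP-negative-only regions, at 1.62% to 8.17% against 11.7% to 13.6%. Each setting keeps a distance of both kinds, so these shares are not independent of the density near the ends. The share of isolated regions was lowest without GFP-negative replicate 2, where it was 1.62%, and 2.24% without GFP-negative replicate 1 and 2.74% without GFP-positive replicate 1.

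**Figure D5:**
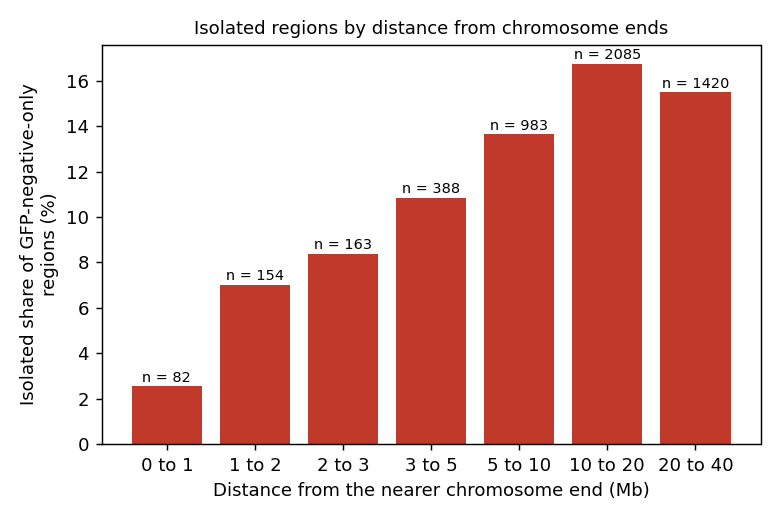
Isolated share of GFP-negative-only regions (y axis, percent) by distance from the nearer chromosome end (x axis, Mb), with the number of isolated regions above each bar. The share is 2.54% in the outer 1 Mb and 16.7% from 10 to 20 Mb.

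The same rule applied to periderm gave isolated GFP-positive-only regions for a side by side view. There were 3343, or 30.7% of the 10906 GFP-positive-only regions, where 13.3% of the GFP-negative-only regions were isolated. GFP-positive-only regions made up 1.57% of all regions, against 5.73% for GFP-negative-only regions. The part of this difference in number in the isolated shares was not tested. Their median summits were 10 tags in both GFP-positive lists, and their median widths 89 and 73 bp in replicates 1 and 2, next to 11 and 10 tags and 88 and 73 bp for isolated GFP-negative-only regions in the GFP-negative lists. Per 10000000 tags the medians were 2.59 and 2.66 for isolated GFP-negative-only and 4.01 and 3.39 for isolated GFP-positive-only regions, in lists whose lowest called heights differ in the same direction. Of regions more than 5 kb from any other shared region, 5.4% were GFP-negative-only and 1.65% GFP-positive-only, against 5.73% and 1.57% of all regions. This distant set still held shared regions, at 11.0% of it against 15.9% of all regions. The shares are thus over sets of unlike make-up, and no likeness or difference is read from them.

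The identity of the isolated regions changed under several settings. With equal numbers of the strongest peaks in each list the count was 4100, but these overlapped only 933 (17.7%) of the 5275 members. With the upper 50% of each list it was 5781, and 896 members (17.0%) were among them. Both settings drop weak peaks, and in replicate 2 the median was 10 tags for members and 12 for the list. Judged on 1 GFP-negative list the count was 2102 without replicate 1 and 493 without replicate 2. These overlapped 518 (9.82%) and 81 (1.54%) of the members. Every region without a GFP-positive peak is then GFP-negative-only and bars others within 20 kb. The overlaps under these settings are thus not independent of the settings themselves. Without GFP-positive replicates 1 and 2 the count was 4160 and 4085, overlapping 2096 (39.7%) and 3387 (64.2%) of the members. Close to the limits of the rule, the nearest members lay 5002 bp from a shared region, on chromosome 3 from 46807243 to 46807351 (20 and 9 tags) and on chromosome 15 from 13794001 to 13794102 (8 and 10 tags). Just outside, at 4996 bp, lay chromosome 3 from 20720477 to 20720652 (22 and 16 tags) and from 36738930 to 36739011 (9 and 8 tags). At the other limit, chromosome 5 from 34659416 to 34659505 (8 and 10 tags) and chromosome 7 from 76715978 to 76716113 (7 and 8 tags) were members at 20004 bp from another GFP-negative-only region. Chromosome 11 from 39505369 to 39505468 (9 and 8 tags) at 20000 bp and chromosome 23 from 31700693 to 31700889 (10 and 10 tags) at 19997 bp were not.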

How the data were processed

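ATAC-seq was performed on sorted cells of Tg(krt4:GFP) embryos, with 2 GFP-negative and 2 GFP-positive libraries; groups and replicates follow the labels. Before deposit, the authors trimmed reads with Trimmomatic, mapped them with Bowtie2, removed PCR duplicates, kept fragments shorter than 100 bp and called peaks in each library with MACS2 2.1.1 without a local background. Tn5 offsets are not stated for peak calling. The deposited value of each peak has no name and was read as a ratio, the fold over the constant background of its own library; it was not scaled between libraries. The study's methods name the danRer7 build and the submitters' processing notes danRer10. Peaks on chromosome 1 reach 60348296, beyond the end of that chromosome in danRer10, so positions, counted from 1, are given in danRer7.

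Within 0.02 steps, every fold was a whole multiple of its list's step. Height was the fold divided by the step, less 1, and implied tags followed from the step, a genome size of 1400000000 bp and a tag extension of 54 bp. Both rest on this reading. No reads were used, so no counting interval is given, and absence of a peak means only that none was called. The differential test of the study needs reads and was not run. Where a list held several peaks in a region, the strongest was used. Distances are edge to edge.

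Members, classes and measures were chosen with earlier results of these data known. Named regions follow a rule: the 10 with the highest lower percentile, 3 each by distance from any region, by distance from other GFP-negative-only regions, by closeness to the median and by overlap, and 2 on either side of each limit. The steps were checked on simulated lists. Alternatives were the upper 50% of each list, equal numbers of peaks, an overlap of 50%, a width of 200 bp, joining within 100 bp, a fold minimum of 5, distances of 10 and 40 kb, and each library left out; the settings on a 1 kb margin and on the floor, and the share near chromosome ends, were added after the values were seen. Computation used Python 3.11.15, pandas 2.3.3, numpy 2.4.6 and scipy 1.17.1, and plots matplotlib 3.10.9.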

Additional observations from a re-analysis of the deposited data

How the results depend on the processing

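No paired analysis was possible because the results come from no test, and the labels do not say that a replicate number marks 1 incross. The number of isolated regions was 3206 with more than 10 kb from shared regions and 2027 with more than 40 kb from other GFP-negative-only regions. It was 3339 when no GFP-positive peak was allowed within 1 kb and 171 when both heights had to reach 2 times the floor, settings that can only remove members. The median width, on average over the lists, was 114.5 bp with the upper 50% of each list, 110 bp with equal numbers of peaks and 118 bp with a fold minimum of 5. In the same order, the share with a GFP-positive peak within 5 kb was 53.2%, 66.8% and 64.9%, and the share with no region within 5 kb 19.7%, 18.7% and 20.9%. The first share was also 78.9% at a fixed width of 200 bp, 79.3% beyond 10 kb from shared regions and 78.6% beyond 40 kb from other GFP-negative-only regions. With each library left out in turn, the ranges were 493 to 4160 regions, 59 to 87.5 bp, 31.5% to 71.5% with a GFP-positive peak within 5 kb, 7.05% to 38.7% with no region within 5 kb and 4.69% to 6.29% on chromosome 4. With either GFP-negative list left out, every region without a GFP-positive peak is itself GFP-negative-only and barred within 20 kb. A region within 5 kb must then hold a GFP-positive peak. The share with such a peak and the share with no region are thus complements by the rule. They were 71.5% and 28.5% without GFP-negative replicate 1, and 61.3% and 38.7% without GFP-negative replicate 2. Apart from this and from settings that can only remove members, the cause of these moves was not tested. A fixed width of 200 bp gives no value for the width. The median percentile stayed within 1 SD of its value in all 12 of its alternatives. This SD of 10.6 comes from 2 lists and gives a wide band. Where a setting shortened the lists, percentiles were ranked anew within them, so little can be read from this. Median heights of 11 and 10 tags compare with a lowest called height of 6 tags in both GFP-negative lists. A missing call in a GFP-positive list means only that no peak was called there, and the part of depth in this was not tested.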
